A study of Mus musculus with 9 samples.

Results

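A set of 9 genes of blood coagulation and fibrinolysis was examined in endothelial cells (ECs) of the bone marrow (BM), chosen by gene name from the deposited read count table, which lists 46078 genes. The 9 genes fall into 3 roles. Vwf, F8 and F3 promote clotting, Thbd, Procr and Tfpi restrain it, and Plat, Plau and Plaur belong to the system that dissolves fibrin. All 9 had 1 row each in the table, all 9 passed the filter on low counts, and none shares exonic bases with another annotated gene. The study sorted CD45-Ter119-CD31+ cells from the marrow of normal wild-type B6 mice by flow cytometry and split them on Sca-1, a surface protein that in the marrow marks the endothelium of arteries and arterioles more strongly than that of sinusoids. It deposited RNA-seq read counts of 4 Sca-1+ libraries, whose labels end in 7, 13, 15 and 19, and of 5 Sca-1- libraries, whose labels end in 8, 10, 14, 16 and 22. Age and sex of the mice are not given in the sources used here, the labels give wild type and B6 for every library, and nothing says that each library came from a separate animal, so the p-values measure the spread between these libraries. The study writes wt for wild type and gives CD45.2 for B6 mice. Beyond that, no source used here says what the further letters in the titles stand for. They read wt in libraries 15 and 19 of the Sca-1+ and 8 and 16 of the Sca-1- fraction, CD452 in libraries 13, 14 and 22, and the same digits without CD in library 10, with neither in library 7.

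Quiescent endothelium keeps blood fluid while remaining ready to seal a breach. It displays thrombomodulin, the product of Thbd, which turns thrombin from a clotting enzyme into an activator of protein C. The endothelial protein C receptor, the product of Procr, presents protein C to that complex, and tissue factor pathway inhibitor, the product of Tfpi, blocks the step at which tissue factor (F3) starts coagulation. Von Willebrand factor (Vwf) tethers platelets and carries factor VIII (F8) in plasma, and it is made by both endothelium and megakaryocytes, the marrow cells that shed platelets. Tissue plasminogen activator (Plat) and urokinase (Plau) both turn plasminogen into plasmin, and Plaur encodes the receptor that holds urokinase at the cell surface.

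The libraries held 21581653 to 25959818 counts each. Ly6a, which encodes Sca-1, had 25643 to 35843 counts in Sca-1+ libraries and 4 to 45 in Sca-1- libraries. Pecam1, which encodes CD31, had 33397 to 45470 and 10070 to 24370, and Ptprc, which encodes CD45, 0 to 66 and 286 to 1440. The endothelial label held less evenly. Reads of 22 general endothelial genes made up 1.78% to 2.37% of each Sca-1+ library but 0.0894% to 0.134% of each Sca-1- library, and 21 of the 22 were higher in Sca-1+ cells, the exception being Myct1. A list of 16 megakaryocyte and platelet genes took 0.00471% to 0.011% of each Sca-1+ library and 3.16% to 6.95% of each Sca-1- library, and all 16 were lower in Sca-1+ cells. The endothelial cadherin Cdh5 had 35 to 396 counts in the Sca-1- libraries, where the platelet integrin gene Itga2b had 162242 to 333444 and Pf4, which encodes platelet factor 4, 97651 to 176768. The Sca-1- cells are therefore called here the Sca-1- fraction. Arterial endothelial genes took 0.105% to 0.136% of Sca-1+ and 0.000608% to 0.005% of Sca-1- libraries, and sinusoidal endothelial genes 0.169% to 0.242% and 0.00174% to 0.0258%. Leukocyte genes took 0.0282% to 0.0496% and 0.23% to 0.478%, neutrophil genes 0.00109% to 0.0882% and 0.0157% to 0.0786%, and erythroid genes 0.0278% to 0.043% and 0.149% to 0.298%. Smooth muscle and pericyte genes took 0.0831% to 0.184% of Sca-1+ and 0.00118% to 0.0111% of Sca-1- libraries. Monocyte and macrophage genes took 0.00174% to 0.0208% and 0.0995% to 0.166%, and marrow stromal and osteoblast genes 0.0804% to 0.305% and 0.328% to 2.86%. In Sca-1- libraries the monocyte share was mostly Lyz2 (23244 to 40546 counts). The stromal share there was mostly Col1a1 (47812 to 458919 counts) and Col1a2 (21814 to 217435 counts). Among 7 monocyte genes tested, 0 were higher and 2 lower in Sca-1+ cells. Among 10 stromal genes, 3 were higher (Cxcl12, Lepr and Kitl) and 3 lower (Col1a1, Col1a2 and Bglap). Of the defining genes of these cells, the macrophage receptor gene Csf1r had 78 to 189 and 56 to 189 counts, Pdgfra of stroma 31 to 200 and 15 to 148, and Pdgfrb of pericytes 163 to 991 and 0 to 221. The part of these cells in the results was not tested, and in sorted bulk RNA fewer cells of a type and less RNA per cell cannot be told apart. Levels are given below as CPM, read counts relative to library size after TMM scaling of the libraries, and 3 counts, taken as the floor of detection, were worth 0.0996 to 0.209 CPM.

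The sequences just upstream of 4 members are shown because those genes split between a clear difference (Procr, Plaur and Tfpi) and none that passed the test (F3), which makes it possible to read their starts side by side. They are RefSeq windows on GRCm38.p6 of up to 250 bases before the annotated start, ended where GENCODE places an exon. Such a window was found for 5 of the 9 members (F8, F3, Procr, Tfpi and Plaur). That of F8 is not shown, because its first base already lies in a GENCODE exon of F8. The letters were still searched in all 250 bases of each window. Capitals mark the motif letters that were searched on both strands.
F3, chr3:121723287-121723536, plus strand: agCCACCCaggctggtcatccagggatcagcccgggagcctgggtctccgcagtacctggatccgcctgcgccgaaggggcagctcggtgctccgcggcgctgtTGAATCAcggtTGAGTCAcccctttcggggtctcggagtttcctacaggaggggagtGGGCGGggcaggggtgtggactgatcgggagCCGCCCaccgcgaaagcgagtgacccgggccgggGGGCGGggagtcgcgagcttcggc
Procr, chr2:155750967-155751116, plus strand: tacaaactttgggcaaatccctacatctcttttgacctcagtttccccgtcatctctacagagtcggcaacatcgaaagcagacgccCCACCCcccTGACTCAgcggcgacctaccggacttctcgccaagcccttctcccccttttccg
Plaur, chr7:24462233-24462482, plus strand: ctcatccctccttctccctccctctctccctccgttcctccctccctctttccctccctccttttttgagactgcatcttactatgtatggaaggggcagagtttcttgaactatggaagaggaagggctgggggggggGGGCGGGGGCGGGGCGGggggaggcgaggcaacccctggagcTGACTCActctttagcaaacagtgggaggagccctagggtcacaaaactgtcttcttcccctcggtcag
Tfpi, chr2:84476776-84477009, minus strand: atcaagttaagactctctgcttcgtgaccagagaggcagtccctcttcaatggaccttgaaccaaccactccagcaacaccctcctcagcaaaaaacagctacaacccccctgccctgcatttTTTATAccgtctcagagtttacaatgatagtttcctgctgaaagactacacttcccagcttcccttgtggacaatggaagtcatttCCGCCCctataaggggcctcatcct
The letters TGANTCA, which AP-1 factors bind, stand at 146 and 135 bases before the RefSeq start of F3, at 154 before that of Procr and at 69 before that of Plaur. They were found in 6.75% of 32851 RefSeq windows of the same length, and not in the windows of F8 or Tfpi. The GC box letters GGGCGG occur at 3 positions each in F3 and Plaur (those of Plaur overlap) and at 1 position in each of the 2 Tfpi windows, and in 32.7% of all windows. The letters TATAAA occur in Tfpi and in 12.4% of all windows, and CCACCC, read by Krüppel-like factors, in F3 and Procr and in 28.1%. The letters CCGGAAG of ETS factors (6.91% of windows) and the E-box letters CACGTG (6.02%) were in none of the members' windows. The NF-kB motif was searched in 1 strict form only (0.356% of windows), which was in none of the members' windows either. The F3 window shown holds a run that differs from that form by 1 letter. Other forms of the NF-kB motif were not searched, so its absence from these windows is not shown. The letters AGATAA of GATA factors (9.99% of windows) were only in a second, downstream Tfpi window, which is not shown. A match is a run of letters and not evidence of binding.

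Of the 9 genes, 7 were higher in Sca-1+ cells (F8, Thbd, Procr, Tfpi, Plat, Plau and Plaur), 1 was lower (Vwf), and F3 did not pass the test (edgeR quasi-likelihood test, two-sided, adjusted p under 0.05 over 15937 genes). Over all genes tested, 23.3% were higher and 21.4% lower. The same 7 genes had every Sca-1+ library above every Sca-1- library, as had 24.8% of all genes, and Vwf had the reverse, as had 18.8%, so that 43.6% of all genes did not overlap in 1 direction or the other. The median log2 fold change (Sca-1+ over Sca-1-) was 3.79 for the 9 genes and 0.074 for all genes tested. Within the titles that read wt (2 and 2 libraries) and CD452 (1 and 2), the direction of the 7 genes and of Vwf could not differ, since their fractions did not overlap. The difference of Vwf in mean log2 CPM was -2.98 and -3.13 there. The general endothelial list had a median of 4.70, and with libraries scaled to that list instead of by TMM none of the 7 genes stayed higher past the test, as described further on.

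**Figure D1:**
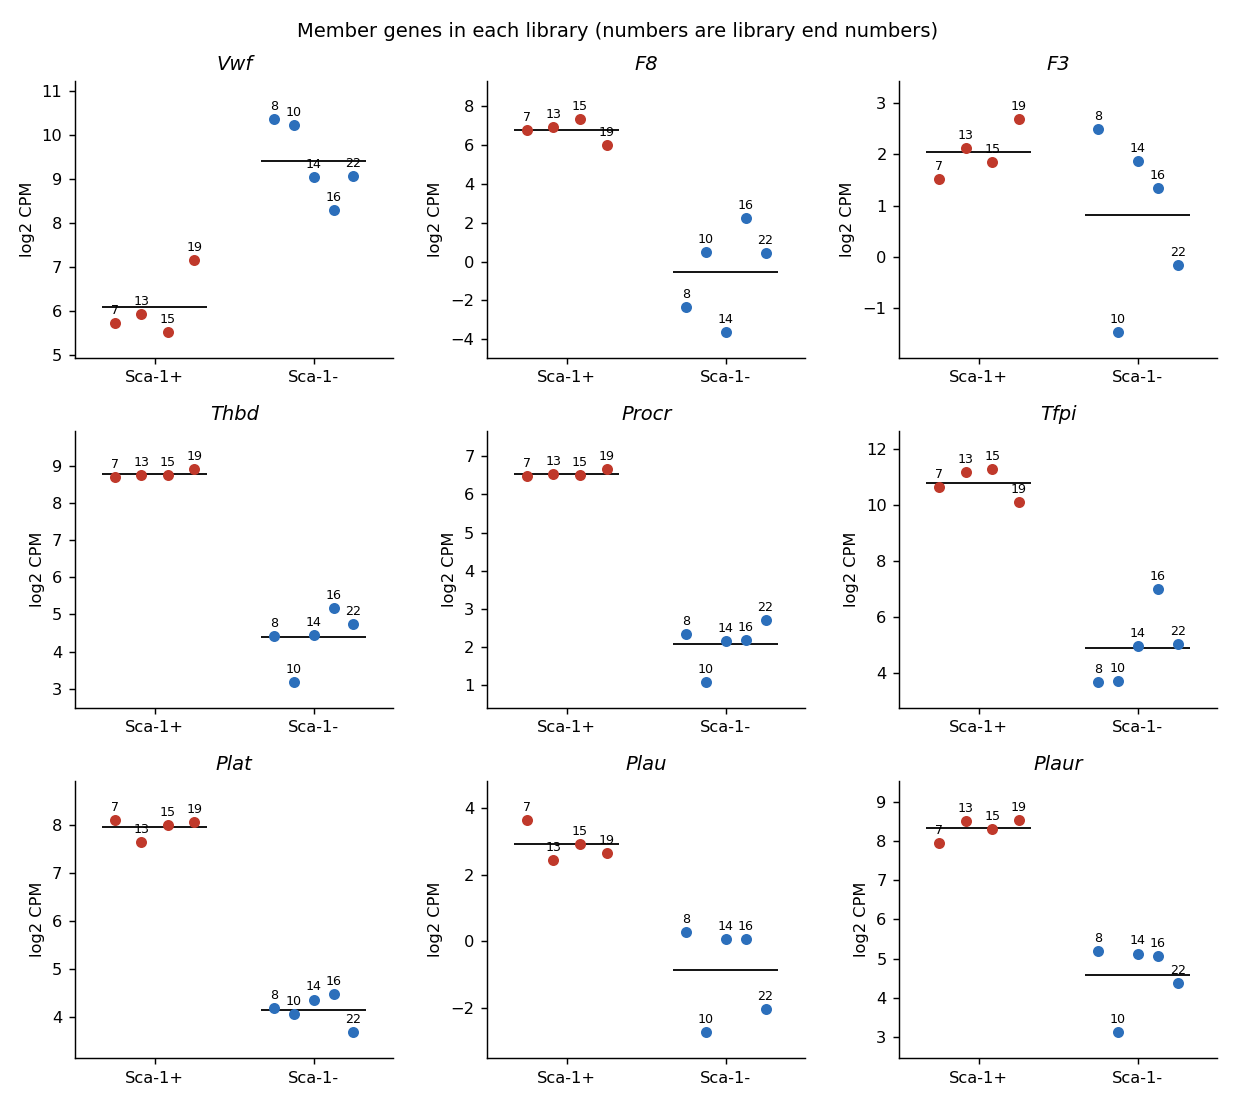
Level of each of the 9 genes, as log2 CPM with a prior count of 2, in each of the 4 Sca-1+ (red) and 5 Sca-1- (blue) libraries; each panel has its own vertical axis, points carry the library's end number and bars are the means of a fraction. Vwf is higher in every Sca-1- library, F3 overlaps between the fractions, and the other 7 genes are higher in every Sca-1+ library.

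Among the clotting genes, Vwf and F8 moved in opposite directions. Vwf (ENSMUSG00000001930, chromosome 6 from 125546774 to 125686679 on GRCm38) was counted at 52.9, 60.8, 46.0 and 143 CPM in Sca-1+ libraries 7, 13, 15 and 19, and at 1307, 1202, 529, 315 and 536 CPM in Sca-1- libraries 8, 10, 14, 16 and 22. The lowest Sca-1- library was thus above the highest Sca-1+ library, and library 19 stood above the other Sca-1+ libraries. The mean was 75.7 ± 45.3 CPM (SD, n = 4) against 778 ± 446 CPM (SD, n = 5), 10.3-fold higher in the Sca-1- fraction, and the log2 fold change was -3.36 (SE 0.55, edgeR adjusted p = 8.4e-04). Without library 19 it was -3.87.

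Within the Sca-1- fraction, libraries 8 and 10 held the highest Vwf and the highest mean log2 CPM of the 16 megakaryocyte genes (11.87 and 12.20), and library 16 the lowest of both (9.94 for the list). The TMM factors of libraries 8 and 10 (0.671 and 0.581) were under those of libraries 14, 16 and 22 (0.988, 1.16 and 1.14). A lower factor raises every CPM of a library. Vwf had 21753, 17219, 12462, 9481 and 13175 counts in libraries 8, 10, 14, 16 and 22. Relative to the mean of the megakaryocyte list in the same library, Vwf lay at -1.52, -1.97, -1.97, -1.64 and -1.44 on the log2 scale in libraries 8, 10, 14, 16 and 22, a spread of 0.25 (SD, n = 5). In Sca-1+ libraries the list had a mean log2 CPM of only 0.05 to 1.41, and Vwf lay 4.52 to 7.11 above it. The Sca-1+ library with the most Vwf, library 19, had the lowest megakaryocyte mean (0.05) and the fewest counts of the platelet glycoprotein gene Gp1ba (3, against 16 to 34 in the other Sca-1+ libraries and 18418 to 73163 in Sca-1- libraries). It also had the highest neutrophil mean of the Sca-1+ libraries (4.17, against -0.98 to 0.62). The part of megakaryocyte RNA in the Vwf difference was not tested.

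**Figure D2:**
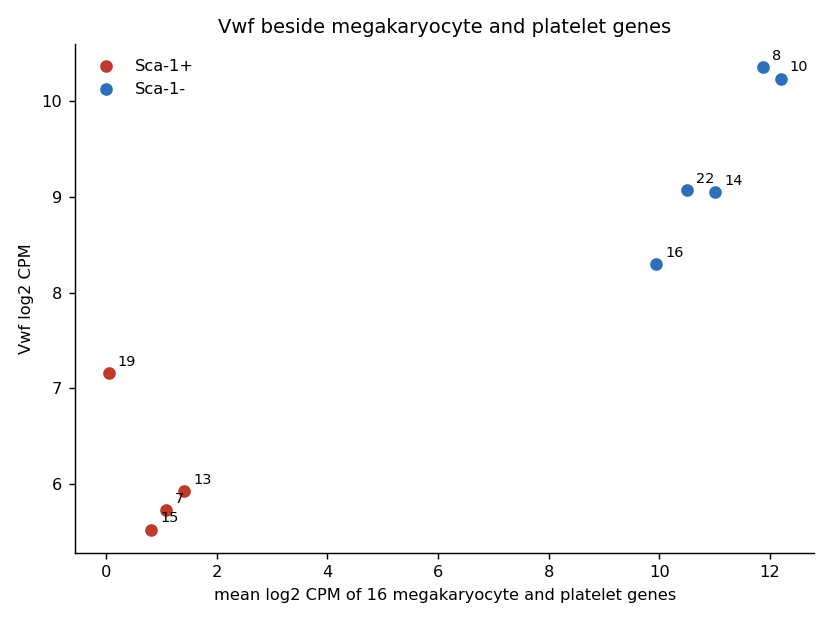
Vwf log2 CPM (vertical) against the mean log2 CPM of 16 megakaryocyte and platelet genes (horizontal) in the 4 Sca-1+ (red) and 5 Sca-1- (blue) libraries, labelled by end number. The Sca-1- libraries lie at list means of 9.94 to 12.20 and the Sca-1+ libraries at 0.05 to 1.41, where library 19 has the highest Vwf of its fraction.

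F8 (ENSMUSG00000031196, chromosome X from 75172715 to 75382615), the gene of the cofactor that plasma Vwf carries, was counted at 110, 124, 161 and 65.2 CPM in Sca-1+ libraries 7, 13, 15 and 19. In the Sca-1- libraries it had 2 counts in library 8, 19 in library 10, 0 in library 14, 142 in library 16 and 31 in library 22, so that libraries 8 and 14 were at or under the floor. The mean was 115 ± 39.6 CPM (SD, n = 4) against 1.48 ± 1.91 CPM (SD, n = 5), 77.4-fold higher in Sca-1+ cells, and the log2 fold change of 6.23 (SE 1.05, edgeR adjusted p = 9.4e-04) was larger than that of 98.8% of the genes tested. Library 16, with the most F8 of the Sca-1- fraction, also had the largest share of counts from 8 sinusoidal endothelial genes (0.0258%, against 0.00174% to 0.0207% in the other Sca-1- libraries) and the smallest from megakaryocyte genes. Its shares of leukocyte (0.478%), erythroid (0.298%) and smooth muscle and pericyte genes (0.0111%) were the largest of the fraction too. Library 22 had 0.0207% sinusoidal and the largest general endothelial share (0.134%), with 31 F8 counts. The part of any of these cells in the F8 counts was not tested. Without library 16 the log2 fold change of F8 was 7.41.

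F3 (ENSMUSG00000028128, chromosome 3 from 121723537 to 121735048), which encodes tissue factor, the trigger of coagulation, was low in every library. It was counted at 2.79, 4.29, 3.52 and 6.35 CPM in Sca-1+ libraries 7, 13, 15 and 19 and at 5.53, 0.279, 3.56, 2.46 and 0.814 CPM in Sca-1- libraries 8, 10, 14, 16 and 22. The fractions overlapped and the Sca-1- libraries were 19.8-fold apart. The means of 4.24 ± 1.53 (SD, n = 4) and 2.53 ± 2.12 CPM (SD, n = 5) did not differ past the test, and the log2 fold change was 0.74 (SE 0.71, edgeR adjusted p = 0.42).

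The 3 anticoagulant genes were all higher in Sca-1+ cells, where Thbd and Procr varied least of the 9 genes. Thbd (ENSMUSG00000074743, chromosome 2 from 148404466 to 148408188, a single exon) was counted at 416, 429, 435 and 478 CPM in Sca-1+ libraries 7, 13, 15 and 19, and at 21.2, 8.94, 21.7, 35.8 and 26.6 CPM in Sca-1- libraries 8, 10, 14, 16 and 22. The Sca-1+ libraries were 1.15-fold apart at most, the Sca-1- libraries 4.01-fold, and library 10 was the lowest. The mean was 440 ± 27.0 against 22.8 ± 9.74 CPM (SD, n = 4 and n = 5), a 19.2-fold difference, and the log2 fold change was 4.26 (SE 0.36, edgeR adjusted p = 2.9e-05).

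Procr (ENSMUSG00000027611, chromosome 2 from 155751117 to 155755471) was counted at 90.0, 92.0, 91.4 and 101 CPM in the Sca-1+ libraries in the same order, and at 4.99, 2.02, 4.37, 4.45 and 6.39 CPM in the Sca-1- libraries. Library 10 was again the lowest. The mean was 93.5 ± 4.85 against 4.44 ± 1.58 CPM (SD, n = 4 and n = 5), a 21.04-fold difference, and the log2 fold change was 4.39 (SE 0.31, edgeR adjusted p = 1.5e-05).

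Tfpi (ENSMUSG00000027082, chromosome 2 from 84432855 to 84476775) was the most abundant member in Sca-1+ cells, above 99.8% of the genes tested by mean CPM. It was counted at 1591, 2300.3, 2469 and 1104 CPM in Sca-1+ libraries 7, 13, 15 and 19, and at 12.8, 13.3, 31.6, 129 and 32.9 CPM in Sca-1- libraries 8, 10, 14, 16 and 22. Library 16 stood above the other Sca-1- libraries, as it did for F8, and library 19 was the lowest Sca-1+ library for both genes. The mean was 1866 ± 635 against 44.0 ± 48.7 CPM (SD, n = 4 and n = 5), 42.4-fold higher in Sca-1+ cells, and the log2 fold change was 5.40 (SE 0.76, edgeR adjusted p = 3.4e-04), or 6.36 without library 16.

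The fibrinolytic genes were also higher in Sca-1+ cells. Plat (ENSMUSG00000031538, chromosome 8 from 22757727 to 22782844) was counted at 277, 201, 255 and 266 CPM in Sca-1+ libraries 7, 13, 15 and 19, and at 18.1, 16.7, 20.5, 22.3 and 12.7 CPM in Sca-1- libraries 8, 10, 14, 16 and 22. It varied least of the 9 genes in the Sca-1- fraction, where its libraries were 1.75-fold apart. The mean was 250 ± 33.9 against 18.1 ± 3.69 CPM (SD, n = 4 and n = 5), a 13.8-fold difference, and the log2 fold change was 3.79 (SE 0.23, edgeR adjusted p = 8.2e-06).

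Plaur (ENSMUSG00000046223, chromosome 7 from 24462484 to 24475968) was counted at 248, 367, 316 and 374 CPM in the Sca-1+ libraries and at 36.5, 8.59, 34.9, 33.4 and 20.6 CPM in the Sca-1- libraries, in the same order. Library 10 was the lowest. The mean was 326 ± 58.0 against 26.8 ± 11.97 CPM (SD, n = 4 and n = 5), a 12.2-fold difference, and the log2 fold change was 3.61 (SE 0.40, edgeR adjusted p = 9.9e-05).

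The ligand of that receptor was scarce. Plau (ENSMUSG00000021822, chromosome 14 from 20836660 to 20843385) was counted at 12.5, 5.35, 7.42 and 6.16 CPM in Sca-1+ libraries 7, 13, 15 and 19, and had 19, 1, 23, 29 and 4 counts in Sca-1- libraries 8, 10, 14, 16 and 22, so that library 10 was under the floor. The mean was 7.85 ± 3.20 against 0.663 ± 0.505 CPM (SD, n = 4 and n = 5), and the log2 fold change was 3.55 (SE 0.72, edgeR adjusted p = 0.0027).

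Levels of different genes were compared per kilobase of exon (CPM per kb). In Sca-1+ cells the order of the means was Tfpi (342), Plaur (125), Thbd (118), Procr (46.0), Plat (40.0), F8 (11.6), Vwf (4.71), Plau (3.32) and F3 (1.68). Tfpi lay apart from Plaur, Thbd from Procr, and Plat from F8, with no library in common, while the libraries of the other neighbours overlapped. In the Sca-1- fraction Vwf came first (48.4 CPM per kb), followed by Plaur (10.2), Tfpi (8.05), Thbd (6.14), Plat (2.90), Procr (2.19), F3 (1.0005), Plau (0.280) and F8 (0.150). There Vwf, at 19.6 to 81.3 CPM per kb, lay above every library of Plaur (3.28 to 13.9) but not above the highest library of Tfpi (23.7). F8 thus stood ahead of Vwf in Sca-1+ cells, with overlapping libraries, and had the lowest mean of the 9 genes in the Sca-1- fraction, where its libraries overlapped those of Plau.

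Ratios of counts within a library do not depend on how libraries are scaled. Of 5 such ratios, 2 differed between the fractions. Sca-1+ libraries held 0.456 to 3.50 F8 counts for each Vwf count. In the Sca-1- libraries the ratio was 0.00110, 0.0150 and 0.00235 in libraries 10, 16 and 22, and at most 1.4e-04 and 2.4e-04 in libraries 8 and 14, whose F8 was set to the floor of 3 counts. The mean log2 ratio was thus at least 10.58 higher in Sca-1+ libraries. The Sca-1+ libraries held 75.1 to 148 Thbd counts for each F3 count against 3.82 to 31.9, a difference of 3.11. Every Sca-1+ library was above every Sca-1- library for both (exact permutation test over 126 splits into 4 and 5, two-sided, p = 0.0079, the smallest these libraries allow, adjusted p = 0.024).

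With any 1 library left out, the adjusted p of these ratios by the exact permutation test was 0.057 to 0.11, past the threshold in none. The remaining ratios gave no difference past the test. Procr to Thbd was 0.210 to 0.216 in the Sca-1+ libraries, an SD of 0.020 on the log2 scale, and 0.125 to 0.241 in the Sca-1- libraries (difference 0.081, exact permutation test, p = 0.96). Plat to Plau differed by -0.20 (exact permutation test, p = 0.83) and Plau to Plaur by 0.24 (exact permutation test, p = 0.70), with adjusted p = 0.96 for each of these 3.

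**Figure D3:**
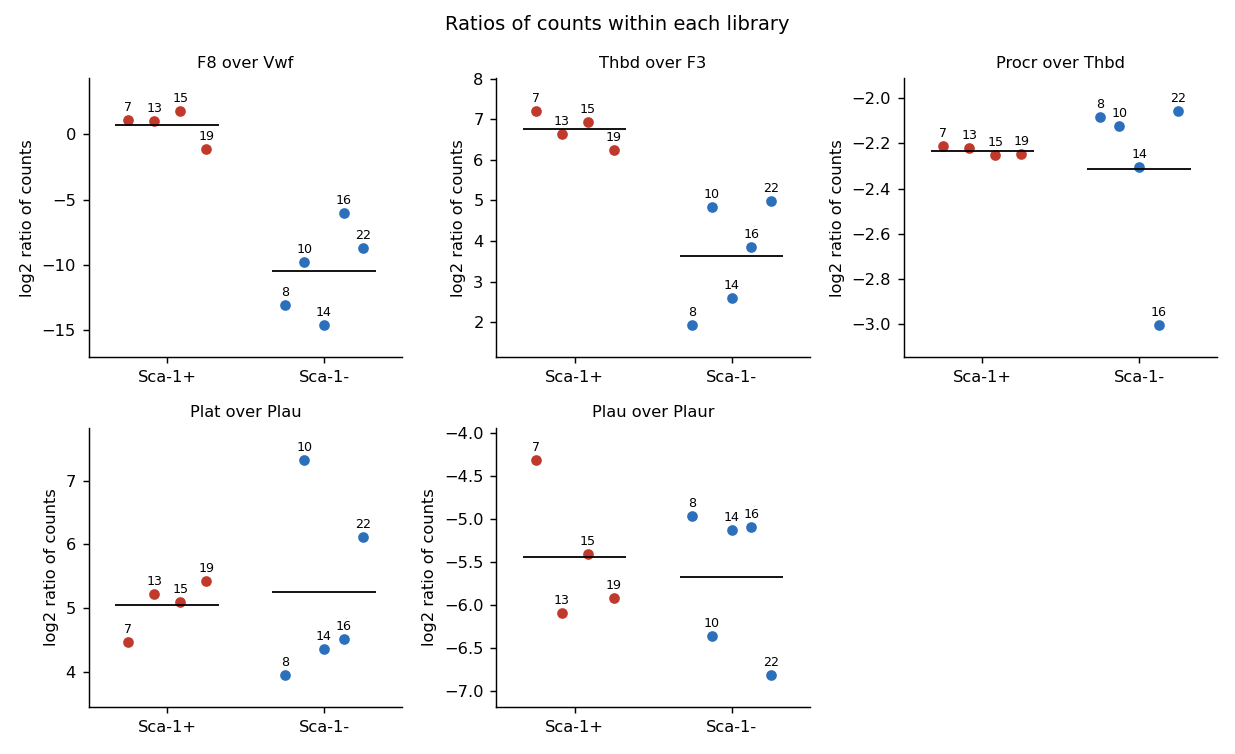
Log2 ratio of the counts of 2 genes in each library (0.5 added to each count) for the 4 Sca-1+ (red) and 5 Sca-1- (blue) libraries, labelled by end number, with bars at the means; each panel has its own vertical axis. F8 over Vwf and Thbd over F3 separate the fractions, and the other 3 ratios overlap.

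Because the fractions held different shares of endothelial RNA, each gene was also set against the average log2 CPM of 22 general endothelial genes in the same library. Thbd lay at -0.37 to -0.01 in Sca-1+ libraries and at -0.23 to 0.28 in Sca-1- libraries, and Procr at -2.58 to -2.25 and -2.71 to -1.94, so both overlapped between the fractions. Tfpi (1.20 to 2.31 against -0.60 to 2.13) and F8 (-2.88 to -1.72 against -8.18 to -2.63) had the higher means in Sca-1+ cells but overlapped. Plat (-1.21 to -0.85 against -1.29 to 0.94), Plaur (-1.12 to -0.34 against -0.60 to 0.91) and Plau (-6.42 to -5.43 against -7.005 to -3.99) overlapped as well. The genes that did not overlap were lower in Sca-1+ cells on this scale. They were Vwf (-3.52 to -1.75 against 3.41 to 7.11) and F3 (-7.55 to -6.22 against -5.13 to -1.80).

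When the whole table was refitted with libraries scaled to these 22 genes, the median log2 fold change of all genes moved from 0.074 to -4.66, 89.7% of genes were lower in Sca-1+ cells and 1.17% higher. Of the 9 genes, 0 were then higher and 4 lower. These were Vwf (log2 fold change -8.40, SE 1.18, adjusted p = 2.8e-05), F3 (-3.77, SE 0.82, adjusted p = 8.5e-04), Plat (-0.99, SE 0.43, adjusted p = 0.045) and Plaur (-0.91, SE 0.38, adjusted p = 0.038), all from edgeR's test. F8 (1.69, adjusted p = 0.13), Tfpi (1.04, adjusted p = 0.086), Procr (-0.15, adjusted p = 0.70), Thbd (-0.23, adjusted p = 0.47) and Plau (-0.96, adjusted p = 0.23) did not pass. On this scale Vwf lay below the median of all genes and the other 8 above it.

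**Figure D4:**
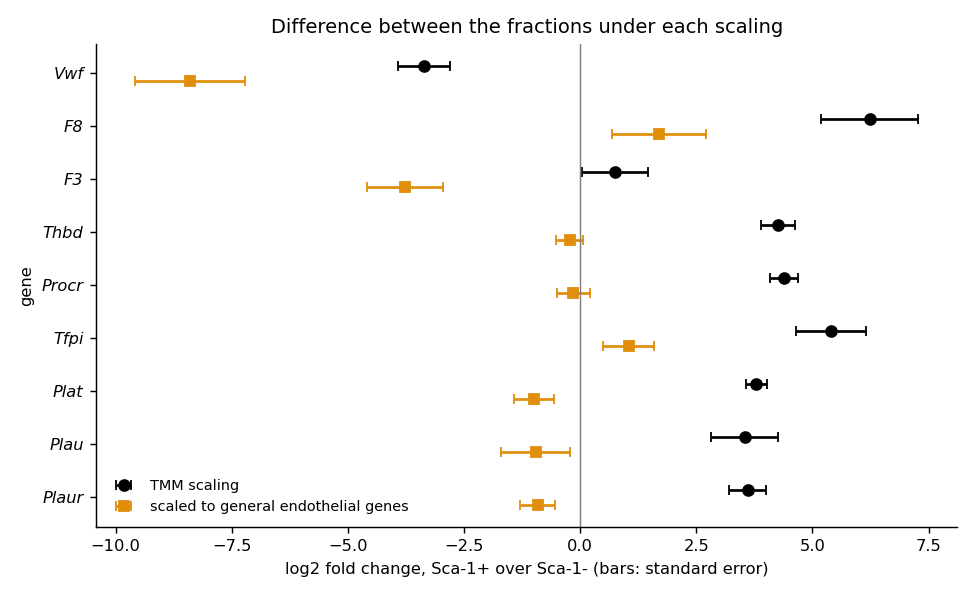
Log2 fold change (Sca-1+ over Sca-1-) of the 9 genes with its standard error, with TMM scaling (black circles) and with libraries scaled to 22 general endothelial genes (orange squares). With TMM, 7 genes lie to the right of 0 and pass the test; scaled to the endothelial genes, Thbd and Procr lie near 0 and Vwf and F3 at -8.40 and -3.77.

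The genes whose log2 CPM ran closest to each member over the 9 libraries were taken from 9867 genes of average log2 CPM of at least 3, as a description with no test, since all 9 points share the difference between the fractions. For Thbd they were Cdh5 (Pearson's r = 0.998), Sept4 (0.997) and Tinagl1 (0.997), and for Procr Cxx1a (0.998), Asah1 (0.997) and Hoxa7 (0.997). For F8 they were Aplnr, the apelin receptor gene (0.991), Lyrm5 (0.988) and Gm16340 (0.984), and for Tfpi Tor3a (0.997), Lrg1 (0.996) and Zscan26 (0.994). For Plat they were Pcdh17 (0.996), Osbpl9 (0.992) and the VEGF receptor gene Flt1 (0.992), for Plaur Fos (0.996), Ramp2 (0.994) and Cxcl1 (0.993), and for Plau Aplp1 (0.975), Prdm1 (0.974) and Erbb2 (0.973). Vwf ran closest to Epb4.1 (0.995), Atp8a1 (0.992) and Golph3 (0.992), and F3, with the weakest match, to Dse (0.920), Fam50a (0.918) and Sod3 (0.916).

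The rest of the pathway was read from 6 lists of 53 genes, of which 35 passed the filter. Of these 35, 6 were higher and 14 lower in Sca-1+ cells, with a median log2 fold change of -0.25. The shares over all genes tested, to be set beside each list below, were 23.3% higher and 21.4% lower. With libraries scaled to the endothelial genes, as above, 0 of the 35 were higher and 33 lower, beside 1.17% and 89.7% of all genes. Of the 14 coagulation factors listed, 5 were tested, and 4 of these were lower in Sca-1+ cells with no overlap. Every Sca-1- library was above every Sca-1+ library in 18.8% of all genes. The 4 were F5 (factor V), F10 (factor X), F13a1 (the catalytic subunit of factor XIII) and F2 (prothrombin). The list's median log2 fold change was -7.41. F2 was low in both fractions, at 0 to 7 counts in Sca-1+ libraries and 9 to 43 in Sca-1- libraries. In 3 of the 4 Sca-1+ libraries it was at or under the floor. F5 had 0.754 ± 0.45 against 341 ± 185 CPM (SD, n = 4 and n = 5), F10 had 0.452 ± 0.494 against 199 ± 63.9 CPM, and F13a1 had 3.40 ± 1.81 against 577 ± 326 CPM. The log2 fold change of F10 was -8.79, and -9.81 without Sca-1+ library 19. F5 shares 262 and F13a1 74 exonic bases with a non-coding gene on the other strand, and since the strand setting of the counting is not given, their counts are uncertain to that extent. F5 and F13a1 are known cargo of platelets. Kng1 (log2 fold change 1.74, edgeR adjusted p = 0.082) did not pass. The fibrinogen genes Fga and Fgb had 0 counts in every library, and Fgg had at most 12 counts in a library.

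Among 11 listed anticoagulants and inhibitors, 6 were tested, 2 were higher and 0 lower in Sca-1+ cells. Tfpi2, a relative of Tfpi, had 68.5 ± 18.4 against 2.33 ± 1.29 CPM (SD, n = 4 and n = 5), and the log2 fold change was 4.85 (SE 0.46, edgeR adjusted p = 4.3e-05). Anxa5, which binds exposed phosphatidylserine, was 1.64-fold higher (edgeR adjusted p = 0.035), a call that was lost without any 1 of 8 of the 9 libraries (all but Sca-1- library 8), with DESeq2, with RLE or upper-quartile scaling, without the filter on low counts and in the fits of 6 libraries (adjusted p = 0.051 to 0.17). With libraries scaled to the endothelial genes its log2 fold change was -4.16. Pros1, which encodes protein S, the cofactor of activated protein C, was abundant in both fractions, at 715 ± 32.2 and 852 ± 387 CPM (log2 fold change -0.25, SE 0.34, edgeR adjusted p = 0.57). Proc, the gene of protein C itself, which is made by the liver, had 0 counts in every library.

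Among 9 further fibrinolysis genes, 6 were tested, 1 was higher and 3 lower in Sca-1+ cells, and the list's median log2 fold change was -0.64. Serpinb2, which encodes plasminogen activator inhibitor 2, had 0 to 2 counts in Sca-1+ libraries and 2815 to 7339 in Sca-1- libraries, at least 2166-fold lower in Sca-1+ cells against the mean floor of the Sca-1+ libraries (edgeR adjusted p = 1.8e-05). The 2 subunits of the annexin A2 complex, a cell-surface receptor for plasminogen and Plat, differed in opposite directions. Anxa2 was 3.95-fold higher in Sca-1+ cells (758 ± 78.2 against 192 ± 56.2 CPM) and its partner S100a10 2.20-fold lower (236 ± 5.66 against 518 ± 257 CPM). Their log2 fold changes were 1.98 (SE 0.26, adjusted p = 2.3e-04) and -1.14 (SE 0.36, edgeR adjusted p = 0.028), and the S100a10 call was lost without any 1 of the Sca-1+ libraries or without Sca-1- library 8, with scaling by library size only and in the fits of 6 libraries. Thbs1, a platelet protein that can bind plasmin, was counted at 39.8 ± 28.9 against 2912 ± 2338 CPM (log2 fold change -6.19, and -6.83 without Sca-1+ library 19). Serpinb2 shares exonic bases with Serpinb10 on its own strand, and Anxa2 and Thbs1 with non-coding genes on the other strand, and they are uncertain to that extent. Plg, the gene of plasminogen, was not tested and had at most 84 counts in a library.

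**Figure D5:**
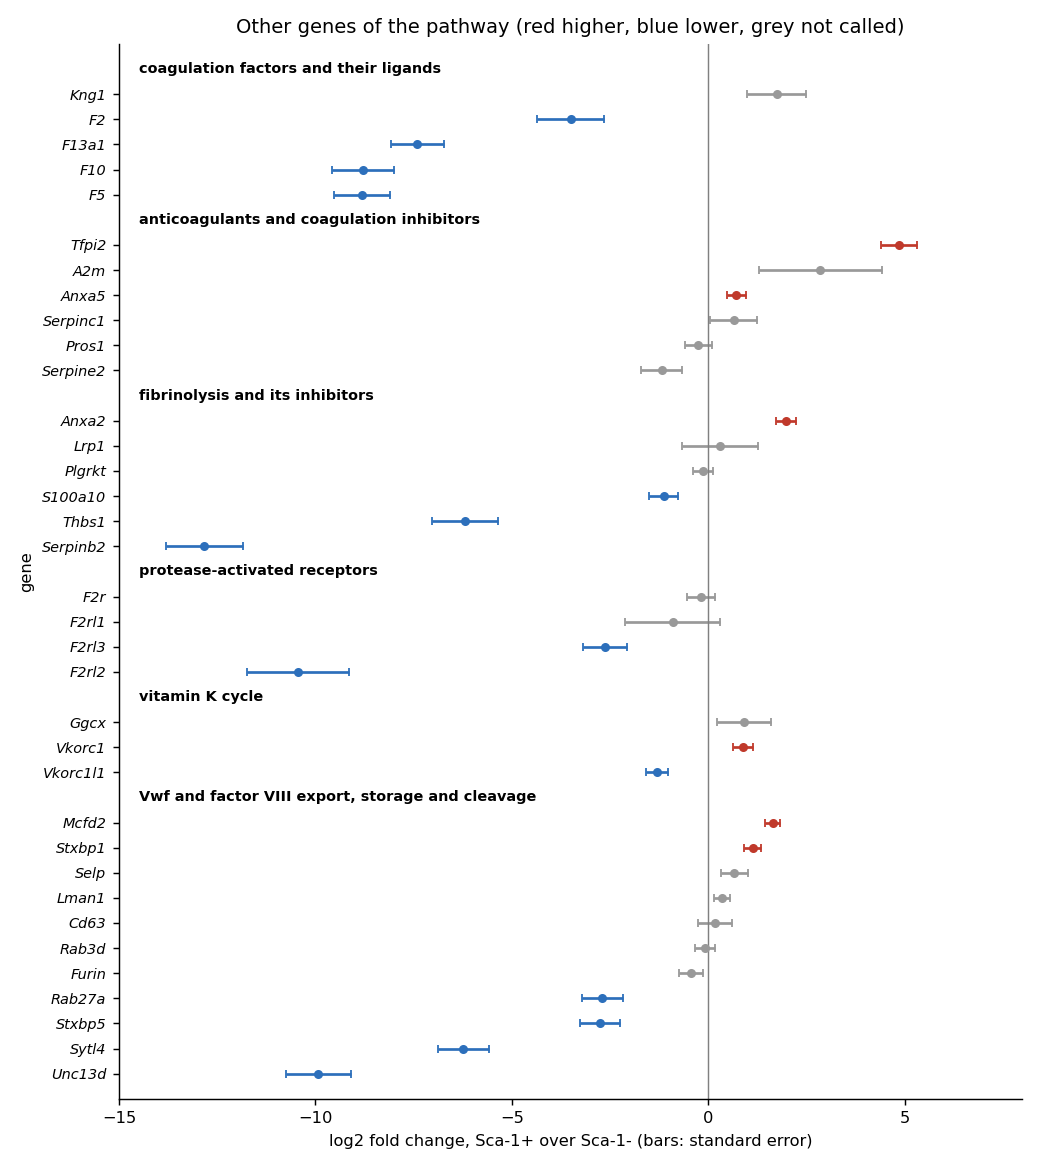
Log2 fold change (Sca-1+ over Sca-1-) with its standard error for the 35 other pathway genes that were tested, grouped by list; red points were higher and blue points lower in Sca-1+ cells at an adjusted p under 0.05, and grey points did not pass. Of the 35, 6 are red and 14 blue, and 4 of the 5 coagulation factors are blue. The shares over all genes tested were 23.3% higher and 21.4% lower.

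Of the 4 protease-activated receptor genes, which include the receptors of thrombin, 2 were lower in Sca-1+ cells and 2 did not pass. F2r, the main thrombin receptor gene of endothelium, was counted at 196 ± 52.5 and 221 ± 101 CPM (log2 fold change -0.17, SE 0.36, edgeR adjusted p = 0.72). F2rl2 was counted at 1.35 ± 1.88 against 1884 ± 1044 CPM and F2rl3, the thrombin receptor gene that serves platelets, at 12.2 ± 7.69 against 75.4 ± 37.2 CPM, both lower in Sca-1+ cells. The log2 fold change of F2rl2 was -10.43, and -12.07 without Sca-1+ library 13, its highest. In the vitamin K cycle, Vkorc1 was higher (log2 fold change 0.89, adjusted p = 0.015) and its relative Vkorc1l1 lower in Sca-1+ cells (-1.31, edgeR adjusted p = 0.0039). Both calls were lost with libraries of consecutive end numbers as a replicate block (6 libraries). Vkorc1 shares exonic bases with a coding gene on its own strand and is uncertain.

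The genes of Vwf and factor VIII export, storage and cleavage gave 2 higher, 4 lower and 5 not past the test, with a median log2 fold change of -0.085. Rab27a shares exonic bases with a pseudogene on its own strand and is uncertain. The 4 genes lower in Sca-1+ cells act in the release of granules or in its control. They were Unc13d (0.425 ± 0.313 against 414 ± 270 CPM), Sytl4 (6.03 ± 2.46 against 453 ± 285 CPM), Stxbp5 (16.2 ± 4.63 against 108 ± 72.9 CPM) and Rab27a (5.45 ± 5.01 against 35.2 ± 6.26 CPM). The log2 fold change of Rab27a was -2.69, and -3.55 without Sca-1+ library 19, its highest. Mcfd2, whose product helps carry factor VIII out of the endoplasmic reticulum, was 3.12-fold higher in Sca-1+ cells (log2 fold change 1.64, SE 0.19, edgeR adjusted p = 1.3e-04). Its partner Lman1 (0.35, edgeR adjusted p = 0.20) and Selp, the P-selectin stored with Vwf (0.66, edgeR adjusted p = 0.14), did not pass. Adamts13, the protease that cuts Vwf, had at most 7 counts in any library.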

How the data were processed

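Sorted wt BM cells (4 Sca-1+ and 5 Sca-1- libraries) were profiled by RNA-seq from total RNA with a low-input full-length cDNA kit. The authors deposited one table of raw read counts per gene, not normalized. The submitters' processing notes name STAR, featureCounts and mm10, and versions and strand setting are not given in the sources used here. The kit adds no molecular identifiers, so floors cover counting error only. The libraries of a fraction differed by a chi-square of at least 40.0 per degree of freedom, so none was a copy of another.

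Low genes were removed with filterByExpr of edgeR 4.0.16 in R 4.3.3 (minimum count 10, minimum total 15). Libraries were scaled by TMM, and fractions were tested by edgeR's quasi-likelihood method (two-sided), p-values being adjusted after Benjamini and Hochberg over 15937 genes, with a threshold of 0.05. Log2 CPM used a prior count of 2 and ratios an added count of 0.5, with p-values adjusted over 6 ratios, of which 1 is not reported here, nor is 1 gene of the fibrinolysis list. The fit was first tested on simulated counts. Alternatives used DESeq2 1.42.0, limma 3.58.1 and other scalings, filters and libraries. Plots used matplotlib 3.10.9.

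The labels number no replicates across fractions. Libraries with consecutive end numbers were tried as 3 pairs, whose deviations correlated at 0.147 (7 and 8), 0.148 (13 and 14) and 0.042 (15 and 16), against at most 0.065 for any other pair. Since 1 pair was under 0.1, they were not treated as paired. Libraries 15 and 16 share a number in their titles that may be that of a mouse. The labels open with a running number that runs in separate series for the 2 fractions, and any batch tied to it cannot be told apart from Sca-1 status. The members, lists, rules and tests were chosen with earlier results of these data known. Named genes are the 9 members, up to 4 called genes of average log2 CPM of at least 3 per pathway list by size of change, 10 marker genes and the 3 genes closest to each member. Other genes named (F2, Kng1, Pros1, Proc, Plg, Fga, Fgb, Fgg, F2r, Mcfd2, Lman1, Selp, Adamts13, Myct1, Lyz2, Col1a1, Col1a2, Cxcl12, Lepr, Kitl and Bglap) were chosen after their values were seen. Coordinates and exon lengths are from GENCODE M21 on GRCm38, the assembly behind mm10, and upstream sequences from RefSeq on GRCm38.p6.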

Additional observations from a re-analysis of the deposited data

Results flagged for a closer look

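A single library stood far apart in 3 of 62 groups of 4 or 5 libraries, a flag that chance raises in about 1 in 20 groups. The log2 ratio of Procr to Thbd counts was -3.003 in library 16 against -2.31 to -2.06 in the rest of the Sca-1- fraction. The log2 CPM of Stxbp5 was 4.54 in library 19 against 3.75 to 3.85 in the rest of the Sca-1+ libraries. That of Anxa5 was 9.88 in library 13 against 9.81 in each of the remaining Sca-1+ libraries.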

How the results depend on the processing

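With 19 alternatives, Vwf kept its direction and its call in each, and F8, Thbd, Procr, Tfpi, Plat, Plau and Plaur in each but the scaling to endothelial genes. That scaling gave 0 members higher and 4 lower, 186 genes higher and 14290 lower over the whole table, and 0 pathway genes higher and 33 lower. It turned Thbd to -0.23, Procr to -0.15, Plat to -0.99, Plau to -0.96, Plaur to -0.91, F3 to -3.77, Anxa5 to -4.16, Anxa2 to -2.68 and Vkorc1 to -3.83, by construction, since the endothelial genes themselves differ between the fractions. With a replicate block of consecutive end numbers (6 libraries), 2265 genes were higher and 2075 lower, 4 pathway genes were higher, and F3 had a log2 fold change of -0.062. Without the block the same 6 libraries gave 4 pathway genes higher and -0.12 for F3. The call of Vkorc1 was lost in both of these fits and that of Vkorc1l1 with the block. The block changed no call among the 9 members.

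Leaving out each library in turn gave 3098 to 3708 genes higher and 2859 to 3577 lower, with 7 members higher and 1 lower each time. The log2 difference ranged from 10.10 to 12.24 for F8 to Vwf (which rests on the added count where F8 was under the floor; at least 10.58 with F8 raised to 3 counts, chosen after seeing the data), 2.68 to 3.45 for Thbd to F3, -0.091 to 0.15 for Procr to Thbd, -0.52 to 0.32 for Plat to Plau and -0.14 to 0.46 for Plau to Plaur. The adjusted p of the 2 ratios that passed rose above the threshold whenever a library was left out, since fewer libraries leave a larger smallest p. An added count of 2 turned Plat to Plau to 0.12 and Plau to Plaur to -0.083, neither past the test. Depth limits F8, F3 and Plau in the Sca-1- fraction, where libraries had 0 to 142, 4 to 92 and 1 to 29 counts.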
